A study of Homo sapiens with 4 samples.

Results

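The Notch receptors NOTCH1, NOTCH2 and NOTCH3, the ligands JAG1 and JAG2 and the target gene HES1 were examined for m6A peaks in RWPE1 cells with and without FTO knockdown. RWPE1 is an immortalized line of human prostate epithelial cells. Stable lines were made by lentiviral infection, 1 with a hairpin of a single FTO target sequence (shFTO) and 1 with the vector (shCtrl), and were kept under puromycin. The lines are cultures of infected cells, and a second hairpin was not analysed here. FTO is a demethylase that removes m6A from RNA. MeRIP-seq enriches methylated fragments with an antibody to m6A (the IP) and sets them against the same RNA without enrichment (the input), and stretches where the IP exceeds the input are called as peaks. Each line gave 1 IP and 1 input library (4 libraries), from which 1 peak list per line was made. Without replicates no test between shFTO and shCtrl cells could be made, and every difference below compares these libraries alone. A peak was taken for a gene when it lay on the strand of the gene and overlapped its hg19 locus, which is given in whole kb. This gave 9 of the 10087 peaks in the shCtrl list and 15 of the 10323 peaks in the shFTO list. The lists hold peak positions and scores but no read counts or expression values, so the depth behind a peak is unknown and the level of FTO was not checked here.

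Notch receptors are single-pass membrane proteins that bind Jagged or Delta-like ligands on neighbouring cells. Binding leads to cleavage of the receptor, and the released intracellular part enters the nucleus and joins RBPJ to switch on genes such as HES1, a transcriptional repressor. In stratified and glandular epithelia the pathway takes part in the choice between basal and luminal or differentiated fates. m6A is written mainly by the METTL3-METTL14 complex, often in long internal exons, near stop codons and in the last exon of an mRNA.

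In both lists, 4 of the 6 genes carried at least 1 peak, namely NOTCH1, NOTCH2, JAG1 and JAG2. NOTCH3 and HES1 had none in either list. The share of all genes with a listed peak was not determined, because no hg19 annotation was used. The count of 4 of 6 genes therefore cannot be set against the whole lists. NOTCH1 carried 3 peaks in shCtrl and 7 in shFTO cells, NOTCH2 carried 2 and 3, JAG1 carried 2 and 3, and JAG2 carried 2 in each. The surplus in shFTO cells therefore came mostly from NOTCH1, and without this gene the counts were 6 and 8. No peak lay on the opposite strand of any of the 6 loci. Of the member peaks, 4 in each list overlapped a peak of the other list (partnered peaks). The other 5 of 9 shCtrl peaks and 11 of 15 shFTO peaks were list-specific. Over all genes, 79.8% of shCtrl peaks (95% Wilson interval 79.1% to 80.6%, counting error only) and 80.4% of shFTO peaks (79.7% to 81.2%) were list-specific. Lacking a partner was thus the common state of a peak in these lists, and the numbers of Notch peaks are too small to set apart from it.

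**Figure D1:**
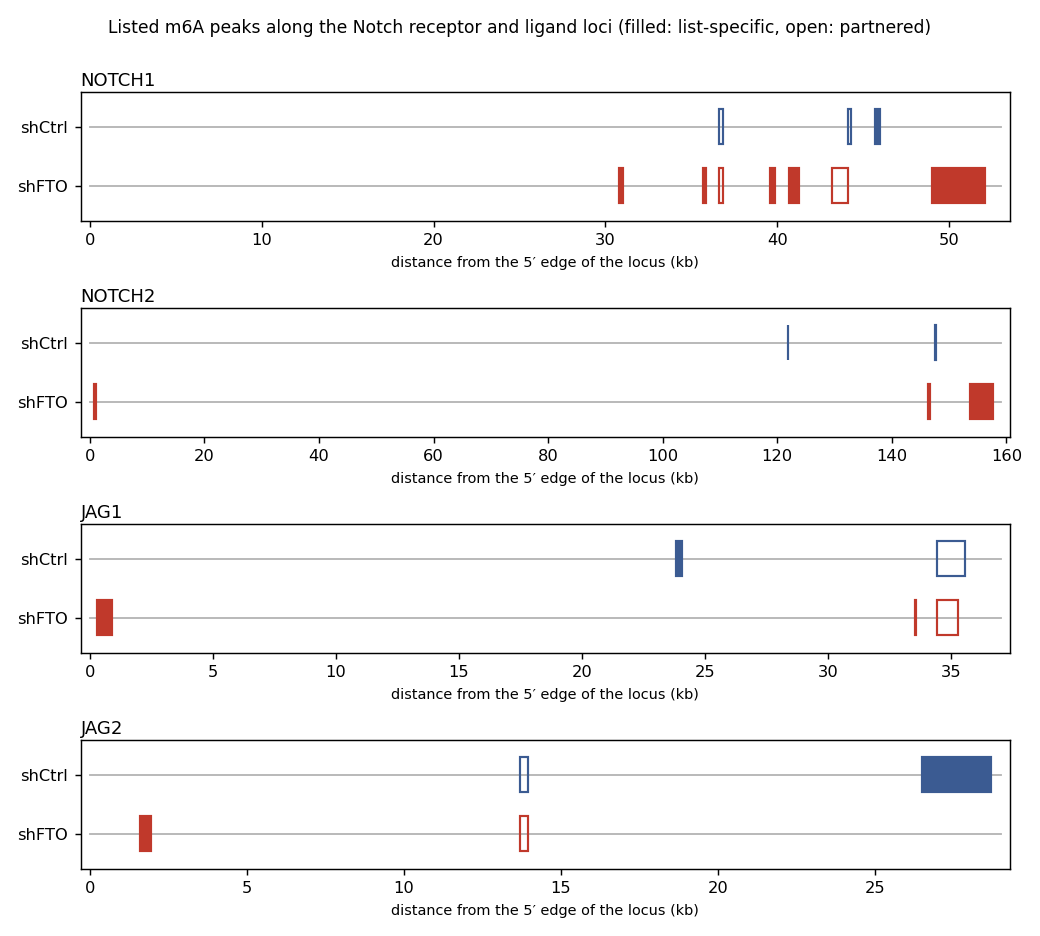
Position of every listed m6A peak along NOTCH1, NOTCH2, JAG1 and JAG2, as distance in kb from the 5′ edge of the locus (transcription runs from left to right). Filled bars are list-specific peaks and open bars are partnered peaks, drawn at their width. The wide peaks lie at the 3′ edge of each gene, and the 3 peaks at a 5′ edge are all in the shFTO row.

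NOTCH1 (hg19 chr9, 139388 to 139441 kb, minus strand) held most of the peaks. NOTCH1 is the receptor best known for its part in epithelial differentiation. In shCtrl cells its peaks lay at 139395004 to 139395299, at 139396724 to 139396940 and at 139404185 to 139404413. Their scores, which were read as rising with the significance of a peak, were 3154.5, 2723 and 1151. Scores cannot be compared between lists, so each is also given as its rank. The rank is the percentage of peaks of the same list that score lower, with peaks of equal score placed at the middle of their tie. These ranks were 99.9%, 95.2% and 88.2%, so all 3 were among the stronger peaks of the shCtrl list.

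In shFTO cells the peak nearest the 3′ edge of NOTCH1 spanned 3115 bp, from 139388896 to 139392010, with a score of 3100. A further 2 peaks had the same score, which is shared by many peaks of both lists and leaves no order among them. They were 572 bp wide at 139399762 to 139400333 and 234 bp wide at 139409935 to 139410168. None of these 3 peaks had a partner in shCtrl cells. The remaining list-specific peaks were 258 bp wide at 139401168 to 139401425 (rank 73.4%) and 153 bp wide at 139405105 to 139405257 (rank 38.4%). Conversely, the top-ranked NOTCH1 peak of shCtrl cells, of 296 bp, had no partner in shFTO cells. Across the list-specific NOTCH1 peaks, then, strong peaks occurred on both sides.

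A pair of NOTCH1 sites was listed in both conditions. At 139404185 to 139404413 the peak had identical edges in both lists and a width of 229 bp, but its rank was 88.2% in shCtrl and 1.66% in shFTO cells (scores 1151 and 52.6). It thus stood among the strong peaks of the control list and just above the lowest score of the knockdown list, which was 50. At the other site the shCtrl peak of 217 bp and the shFTO peak of 894 bp (139396889 to 139397782) overlapped by 52 bp. The overlap was 24.0% of the shCtrl peak and 5.82% of the shFTO peak, and the ranks were 95.2% and 91.1%.

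NOTCH2 (chr1, 120454 to 120613 kb, minus strand), the receptor with the longest locus, had no partnered peak. In shCtrl cells it carried 142 bp at 120465260 to 120465401 and 153 bp at 120491037 to 120491189, with ranks of 11.0% and 7.68%. In shFTO cells it carried a peak of 4036 bp at 120455282 to 120459317, with a score of 3100 and a rank of 96.8%. This was the widest of all the Notch peaks. The other shFTO peaks were 348 bp at 120466260 to 120466607 (rank 54.9%) and 370 bp at 120611948 to 120612317 (rank 63.7%). All NOTCH2 peaks of shCtrl cells were therefore weak within their list, and all those of shFTO cells ranked above its middle. The human genome holds NOTCH2NL genes, partial copies of the 5′ part of NOTCH2, so reads at the 5′ peak could have been shared with them and its placement is uncertain.

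NOTCH3 (chr19, 15270 to 15312 kb, minus strand), a receptor prominent in vascular smooth muscle and in some basal epithelia, had no listed peak. The closest listed peaks ended 101 kb before the locus in shCtrl and 107 kb before it in shFTO cells, and began 41.7 kb and 45.8 kb after it. The lists may hold only a selection of the called peaks, and this does not show that NOTCH3 mRNA was without m6A or was not expressed.

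JAG1 (chr20, 10618 to 10655 kb, minus strand), a Notch ligand of basal epithelial cells, carried its strongest peak at the 3′ edge in both conditions. It spanned 1169 bp in shCtrl (10619435 to 10620603) and 874 bp in shFTO cells (10619730 to 10620603). Both ended at the same base on the 5′ side, while the shFTO peak stopped 295 bp short on the 3′ side. The score ranks were 95.7% and 90.6%. Beside it, shCtrl cells had a weak peak of 270 bp at 10630922 to 10631191 (rank 16.3%). The shFTO cells had a weak peak of 61 bp at 10621431 to 10621491 (rank 13.3%) and a peak of 597 bp at 10654098 to 10654694 (rank 45.8%). The first 2 of these lay in the bottom of the score range of their lists.

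JAG2 (chr14, 105607 to 105636 kb, minus strand), a related ligand, had its longest peak in shCtrl cells. This peak of 2190 bp lay at the 3′ edge, from 105607318 to 105609507, with a score of 3100 and a rank of 97.8%, and it had no partner in shFTO cells. In the middle of the gene both lists held the same 252 bp, from 105622075 to 105622326, with ranks of 70.9% in shCtrl and 69.6% in shFTO cells. The shFTO list added 351 bp at 105634094 to 105634444 (rank 53.4%). HES1 (chr3, 193853 to 193857 kb, plus strand) is the shortest locus, at 4 kb against 159 kb for NOTCH2. It had no listed peak, and the nearest peak on its 5′ side was 476 kb away in both lists.

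**Figure D2:**
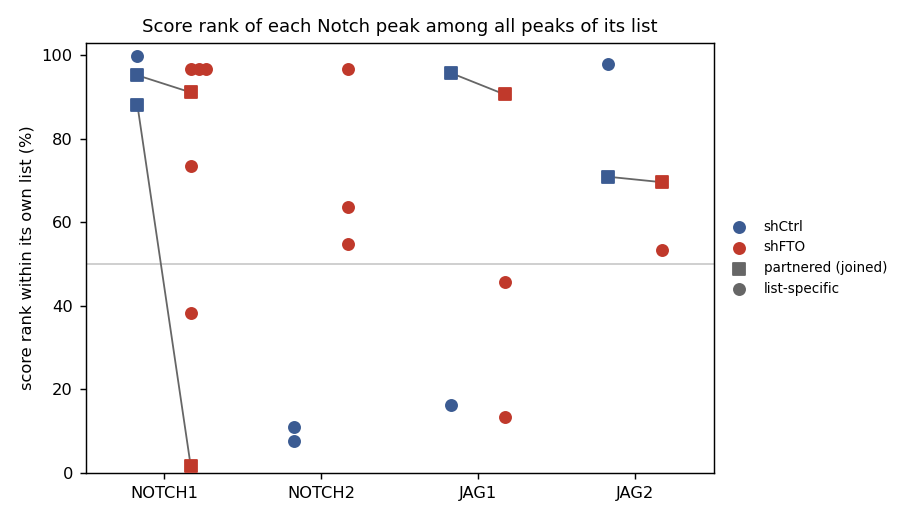
Score rank of each Notch peak among all peaks of its own list (vertical axis, percent), by gene, with shCtrl in blue and shFTO in red. Squares joined by a line are partnered peaks, circles are list-specific, and circles set side by side at 96.8% are the NOTCH1 peaks with a score of 3100. The joined NOTCH1 pair from 88.2% to 1.66% stands out, while the other 3 pairs are nearly level.

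The median rank was 88.2% over the 9 shCtrl peaks and 69.6% over the 15 shFTO peaks, where the middle of a list is by definition 50%. The shCtrl value rests on the 3 NOTCH1 peaks, and without this gene the medians were 43.6% and 59.3%. A score of 3100 or more was carried by 2 of 9 shCtrl and 4 of 15 shFTO peaks, against 4.23% and 6.19% of all peaks. These 2 shCtrl peaks were in NOTCH1 and JAG2, and the 4 shFTO peaks were in NOTCH1 and NOTCH2. The median width was 252 bp against 212 bp for all peaks in shCtrl and 351 bp against 242 bp in shFTO cells. At least 1000 bp were spanned by 2 of 9 shCtrl peaks (9.69% of all) and by 2 of 15 shFTO peaks (15.3% of all), so wide peaks were not more frequent among the Notch peaks of shFTO cells. The counts rest on 4 genes, and peaks of 1 gene share its transcript level, which was not measured here.

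The wide peaks shared a place in the gene. All 4 peaks of at least 1000 bp had their nearer edge within 2 kb of the 3′ edge of their locus. This window was chosen after the positions were seen. Each of the 4 reached further into the gene than the window, and a wide peak meets such a rule more easily than a narrow one. The share of wide peaks at 3′ edges over all genes was not determined, so this place is not shown to be particular to the Notch genes. The 4 wide Notch peaks were found in shFTO cells for NOTCH1 and NOTCH2 and in shCtrl cells for JAG1 and JAG2. The narrower JAG1 peak of shFTO cells also had its nearer edge in this window. Thus the 3′ edges of NOTCH1 and NOTCH2 had a peak in the shFTO list alone, that of JAG2 in the shCtrl list alone, and that of JAG1 in both. The third receptor, NOTCH3, had no listed peak. Locus edges are rounded to 1 kb, and whether these peaks lie in the last exon was not determined, because no hg19 annotation was used here.

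The same window, chosen after the positions were seen, was used at the 5′ edge. Within 2 kb of this edge lay 3 of the 15 shFTO peaks and 0 of the 9 shCtrl peaks. They belonged to NOTCH2, JAG1 and JAG2 and began 0.7 kb, 0.3 kb and 1.6 kb from the edge. All 3 were list-specific, as were 80.4% of all shFTO peaks, and had middling ranks between 45.8% and 63.7%. The share of all peaks near a 5′ edge was not determined, so these counts cannot be set against the whole lists. No such peak was listed for NOTCH1, NOTCH3 or HES1. Antibodies against m6A also bind m6Am, a methylated adenosine next to the cap that arises where a transcript begins with A and that FTO can also demethylate, so the first base is of interest here. The sequence around the RefSeq start site is shown for the 3 genes with a 5′ peak and for NOTCH1, with the first transcribed base in capitals, 10 bases before it and 20 bases from it onwards. Positions are of the RefSeq table's build, GRCh38.p14, and not of the hg19 peak lists.
NOTCH2, chr1:120069643-120069672, minus strand: aggacacacgAggctgcttcgttgcacacc
JAG1, chr20:10673980-10674009, minus strand: cgctgctgccAgacgggctctccgggtcct
JAG2, chr14:105168757-105168786, minus strand: gcgagctgtcAgtctcgttccgaacttgtt
NOTCH1, chr9:136546029-136546058, minus strand: tctgagcctcActagtgcctcggccgcggg

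The annotated transcript began with A in all 3 genes with a 5′ peak, and also in NOTCH1 and HES1, which had none. Only NOTCH3, of the 6, began with another base, C. Over all 35116 annotated genes, 44.4% began with A. With A in 5 of the 6 genes, the first base could hardly separate genes with a listed 5′ peak from those without. No conclusion is drawn from it, and whether m6Am contributed to the 5′ peaks was not tested. The start used in RWPE1 cells may differ from the annotated one, and m6A and m6Am cannot be told apart in these lists.

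The 4 partnered sites were then set against all overlapping pairs. Both edges were identical in 2 of the 4 (NOTCH1 and JAG2), and in 54.7% of the 2037 pairs of the lists. Exactly 1 edge was shared in the JAG1 pair, and in 691 of the 2037 pairs. Shared edges were thus common in these lists, and how peak edges were set is not given in the sources used here. Widths and covered lengths are therefore not read as the extent of methylation. The rank in shFTO cells minus that in shCtrl cells was -1.28 percentage points for JAG2, -5.08 for JAG1 and -4.08 for the wider NOTCH1 pair. These values were small beside the spread of all pairs, of which the middle 90% lay between -42.8 and 31.9 points, with a median of -2.77. For the NOTCH1 pair with identical edges the difference was -86.5 points. It was the largest change in rank, in either direction, among the 2037 pairs. The next largest fall was -83.5 points, the largest rise 81.1 points, and among pairs with identical edges the next largest fall was -68.1 points. This pair was singled out after its values were seen, and without replicate libraries it was not tested.

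**Figure D3:**
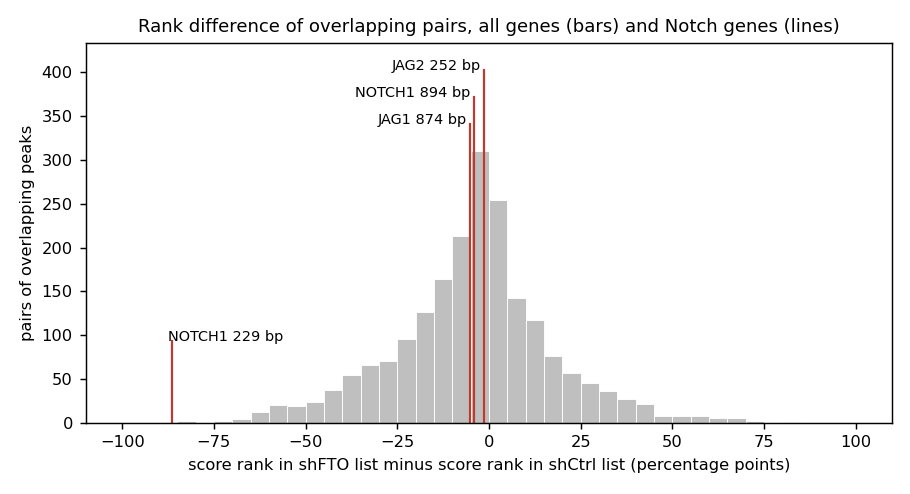
Score rank in the shFTO list minus score rank in the shCtrl list (percentage points) for all 2037 overlapping pairs, as grey bars of the number of pairs per 5 points, with the 4 Notch pairs as red lines labelled by gene and width in shFTO cells. The other lines stand at the centre between -5.08 and -1.28, and the 229 bp NOTCH1 peak stands at -86.5, at the far left end; the heights of the lines carry no value.

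The length covered by peaks was 4918 bp in shCtrl and 12344 bp in shFTO cells over the 6 genes, a ratio of 2.51, beside 1.34 for all peaks of the lists. The mean width was 546 bp and 823 bp for Notch peaks and 409 bp and 535 bp for all peaks. The genes differed in direction. The peaks of NOTCH1 covered 742 bp in shCtrl and 5455 bp in shFTO cells (7.35 times as much), and those of NOTCH2 295 bp and 4754 bp (16.1 times). JAG1 was nearly level, with 1439 bp and 1532 bp (1.06 times). JAG2 ran the other way, with 2442 bp and 603 bp (0.247 times). NOTCH1, NOTCH2 and JAG2 each had most of this difference in the wide peak at the 3′ edge that was listed in only 1 condition. Without NOTCH1 the ratio over the members was 1.65, with 4176 bp and 6889 bp. Without the widest peak of each list it was 3.05, with 2728 bp and 8308 bp.

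The names of the peaks carry running numbers, which rise with position along each chromosome in both lists without exception and reach 173974 in shCtrl and 161598 in shFTO cells. The listed peaks make up 5.80% and 6.39% of these numbers, and a gap in the numbers was read as peaks that were called but are not listed. The deposited lists are labelled as mRNA m6A lists, but how the listed peaks were chosen is not given in the sources used here. Reading gaps as called peaks is therefore an assumption behind every count of unlisted numbers. Unlisted peaks may also lie outside the Notch transcripts. Within NOTCH1 the shFTO peaks ran from number 156869 to 156878, and 7 of these 10 numbers were listed. The 5 peaks from 139396889 to 139405257 were numbered consecutively, with no number missing between them. In shCtrl cells 3 of 7 numbers were listed within NOTCH1. For NOTCH2 the listed peaks were 2 of 7 numbers in shCtrl and 3 of 47 in shFTO cells, for JAG1 2 of 9 and 3 of 17, and for JAG2 2 of 7 and 2 of 9. Neighbouring listed peaks of a gene had consecutive numbers in 1 of 5 steps in shCtrl and 5 of 11 steps in shFTO cells, against 9.38% and 10.8% of the steps in the whole lists. The shares within a gene begin and end at a listed peak and the steps of the whole lists include those between genes, so by construction both comparisons are tilted towards the genes.

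The numbers also bear on the list-specific peaks. For each, the unlisted numbers of the other condition were counted between the closest listed peaks on either side. There was at least 1 unlisted number in every case. The counts were 4 to 65 for the 11 shFTO-specific peaks and 2 to 38 for the 5 shCtrl-specific peaks. Such a result was nearly fixed in advance, since only 5.80% of shCtrl and 6.39% of shFTO numbers are listed. The same count over all list-specific peaks is not given here. Some stretches reach far beyond the gene, up to 616 kb for NOTCH2 and 1268 kb for JAG1, and peaks on both strands were counted. The wide 3′ peak of NOTCH1 in shFTO cells fell in a stretch of 28.4 kb in which 11 shCtrl numbers were unlisted. That of NOTCH2 fell in 180 kb with 10, and that of JAG2 in shCtrl cells in 104 kb with 26 unlisted shFTO numbers. The strong NOTCH1 peak at 139399762 lay in 7.24 kb with 4 unlisted shCtrl numbers. The top-ranked NOTCH1 peak of shCtrl cells lay in 4.88 kb with 2 unlisted shFTO numbers. Around NOTCH3, 24 shCtrl and 20 shFTO numbers were unlisted between the flanking peaks, and around HES1 33 and 59. On this reading a called peak in the other condition is possible at every list-specific site, and a site present in 1 list cannot be told apart from a site whose counterpart was called and then left out.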

How the data were processed

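MeRIP-seq libraries were made with a directional kit and sequenced as paired-end reads. Per the labels, reads were trimmed with cutadapt 1.9.3, HISAT2 was used and the build was hg19. The peak caller is not given in the sources used here, and the peak names have the form that MACS writes. The authors deposited 1 peak list per condition with positions and a score for each peak. The deposited score was read as a multiple of the negative log10 P value, from its lowest value of 50. Loci came from a fixed list in kb. The genes and settings were chosen with earlier results of these data known. Every listed peak of the 6 genes is named. Peaks sharing at least 1 bp on either strand were called partnered. Positions are 1-based. Python 3.11.15, pandas 2.3.3 and SciPy 1.17.1 were used, and the overlap rules were tested on simulated data. Ranks count ties at their middle. Other Notch pathway genes were not analysed, since no hg19 annotation was used. Start sites came from RefSeq (GRCh38.p14), in which all 6 genes matched. In that annotation NOTCH1 is overlapped by a long non-coding RNA on the other strand, and how the authors gave peaks a strand is not given in the sources used here. The sequences under the peaks were not used here.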

Additional observations from a re-analysis of the deposited data

How the results depend on the processing

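Of 65 values under 9 planned settings and 2 chosen after seeing the data, 58 stayed within 1.5 times the reported value. Using only peaks at or above the median score, or only the 5000 highest-scoring peaks, left 3 list-specific shCtrl peaks in place of 5. The weak JAG1 peak and all NOTCH2 peaks of shCtrl cells dropped out. The 229 bp NOTCH1 peak became list-specific, since its low-ranked shFTO partner was no longer used. Leaving out NOTCH1, chosen after seeing the data, left 8 shFTO peaks, 6 of them list-specific, and 6889 bp covered, and a median score rank of 43.6% in shCtrl cells in place of 88.2%. Leaving out the widest peak of each list, also chosen after seeing the data, left 2728 bp in shCtrl cells. The summed width of partnered shFTO peaks was 1.2 times that of shCtrl peaks. It was 0.821 times under both overlap settings of at least 50%, which drop the NOTCH1 pair that shares 52 bp. No paired analysis was possible because there is only 1 peak list for each line, and leaving out a library was likewise not possible. Read depth is unknown, and its part in the missing peaks was not tested.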
